A study of Drosophila melanogaster with 3 samples.

Results

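Of the 30000 peaks called on the pooled replicates of a chromatin immunoprecipitation of SREBP in fly larvae, 1053 (3.51%) had their summit in protein-coding sequence away from promoters. A peak was counted when its summit lay in annotated coding sequence (CDS) of a protein-coding gene and more than 500 bp from every protein-coding transcription start site (TSS). The remaining 28947 pooled summits lay in promoters (within 500 bp of a TSS, 7915 peaks), introns (13044), intergenic sequence (7235), 3' UTRs (489) and 5' UTRs (264). SREBP (HLH106) is the single fly member of the sterol regulatory element-binding protein family. Per the labels, DNA was precipitated with an anti-GFP antibody from intact larvae of mixed sex at the wandering L3 stage, the end of larval life, of a transgenic line with stable expression of SREBP that carries GFP at the N-terminal end. There were 3 biological replicates of this single group, with 1 technical replicate each and fragments of 200 to 800 bp. The antibody field gives HLH106 instead, and no untagged or control group was analysed here. Whole larvae mix all tissues, so a weak peak may be a weak site in many cells or a strong one in few. It may also be background rather than a binding site, and these cannot be told apart.

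SREBP is a membrane-bound transcription factor whose N-terminal domain is released by proteolysis and enters the nucleus, where it binds DNA as a basic helix-loop-helix dimer. In flies it is known for the control of fatty acid and phospholipid synthesis rather than of sterols, which insects take from food. ChIP-seq of transcription factors usually gives its strongest peaks at promoters and enhancers, while coding exons are G+C-rich, constrained by the protein they encode, and crossed by the polymerase. Replicate 2 stood apart from the others in the sequence of interest here: its own peak list had 2.83% of its summits in such coding sequence, against 6.30% in replicate 1 and 5.52% in replicate 3, so values are given by replicate where the lists allow it.

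Peaks were ranked within each list by the peak caller's signal value, 1 being the strongest. The optimal set, the peaks the authors kept for reproducibility between replicates, was the strongest 7993 of the pooled list. It held 13 of the coding-sequence peaks (1.23%, 95% Wilson interval 0.723 to 2.10), against 26.6% of all pooled peaks. For 6 of the strongest of these the sequence is printed below as 101 bp of the dm6 plus strand centred on the summit, with coding bases in capitals and all other bases in lower case, so that the place of the summit relative to the exon can be read directly.
bif, chrX:11681670-11681770: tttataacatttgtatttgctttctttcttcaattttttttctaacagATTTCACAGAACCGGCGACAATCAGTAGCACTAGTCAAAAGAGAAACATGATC
klar, chr3L:506176-506276: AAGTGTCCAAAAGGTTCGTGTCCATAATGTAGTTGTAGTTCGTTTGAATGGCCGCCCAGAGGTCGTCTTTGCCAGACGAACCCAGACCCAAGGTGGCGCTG
CG10962, chrX:8973314-8973414: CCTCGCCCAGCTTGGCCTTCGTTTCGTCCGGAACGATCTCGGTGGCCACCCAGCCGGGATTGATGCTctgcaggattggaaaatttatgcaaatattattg
bip1, chr3L:8057964-8058064: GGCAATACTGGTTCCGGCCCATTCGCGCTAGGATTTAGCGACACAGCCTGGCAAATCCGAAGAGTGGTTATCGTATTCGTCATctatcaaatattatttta
l(3)mbn, chr3L:6124783-6124883: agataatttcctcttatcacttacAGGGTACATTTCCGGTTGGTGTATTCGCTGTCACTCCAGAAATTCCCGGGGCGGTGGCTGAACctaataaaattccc
Pde1c, chr2L:11816528-11816628: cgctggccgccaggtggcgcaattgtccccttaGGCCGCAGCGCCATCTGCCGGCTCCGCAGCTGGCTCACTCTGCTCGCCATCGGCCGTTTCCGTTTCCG

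Only the klar window was coding throughout, and the others ran across the edge of a coding exon. The bif gene lies on the plus strand, and its summit fell 2 bp inside an internal exon, directly after an intron end rich in T. The other 5 genes lie on the minus strand. The l(3)mbn summit lay in an internal exon of only 63 bp, shown whole with bases of both neighbouring introns. The bip1 window ended its capitals with the reversed start codon, and the Pde1c summit lay 17 bp from the end of the last coding exon. Over all 13 peaks the distance from the summit to the edge of its coding exon was between 2 bp (bif) and 156 bp (Snx27). G+C content in these windows had a median of 52.5%, with the lowest value, 31.7%, at bif and the highest, 69.3%, at Pde1c.

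The strongest coding-sequence peak lay in bif (bifocal, a cytoskeletal regulator of photoreceptors), at rank 1809 of the pooled list and at ranks 1674, 1762 and 2151 in replicates 1, 2 and 3. Its interval was 338 bp wide and its summit only 2 bp inside the exon, so its class rests on those 2 bp. The peak in otp (orthopedia, a homeodomain protein) followed at rank 2157, with ranks 1543, 3090 and 2539 in the replicates. The peak in klar (Klarsicht, which links nuclei and lipid droplets to microtubule motors), had rank 2261, with 1324, 7613 and 2486 in the replicates. Thus bif held nearly the same place in all 3 lists, while klar was much weaker in replicate 2 than in the others. CG10962 (rank 3549, an exon that also lies within the span of rdgA), bip1 (3945, a partner of the transcription factor Bric-a-brac) and l(3)mbn (4005) were found in all 3 replicates, at replicate ranks between 2964 and 5720. The next was Pde1c (5250), a calcium- and calmodulin-dependent cyclic nucleotide phosphodiesterase, which ranked 4394 in replicate 1 and 4421 in replicate 3 and was not found in replicate 2.

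The remaining 6 peaks of the optimal set had pooled ranks between 5638 and 7175. Ubr1, an E3 ubiquitin ligase, had rank 5638 (replicate ranks 4458, 8288 and 6280). GstO3, an omega-class glutathione S-transferase, had rank 6200 and was found in replicates 2 and 3 (5527 and 6224) but not in replicate 1. CG11668 (6285) was found in replicates 1 and 3 (5664 and 5489) but not in replicate 2. Snx27, an endosomal sorting nexin, had rank 6489, CG2694 6857, and LRP1, a receptor of the low-density lipoprotein receptor family, 7175. These 3 were found in every replicate, and in each the rank in replicate 2 (13917, 12225 and 9081) was the weakest. In all, 10 of the 13 (76.9%) were found in all 3 replicates, against 92.1% of the other peaks of the optimal set. That set was itself chosen for reproducibility between replicates. None of the genes belonged to any of the gene lists described further on.

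**Figure D1:**
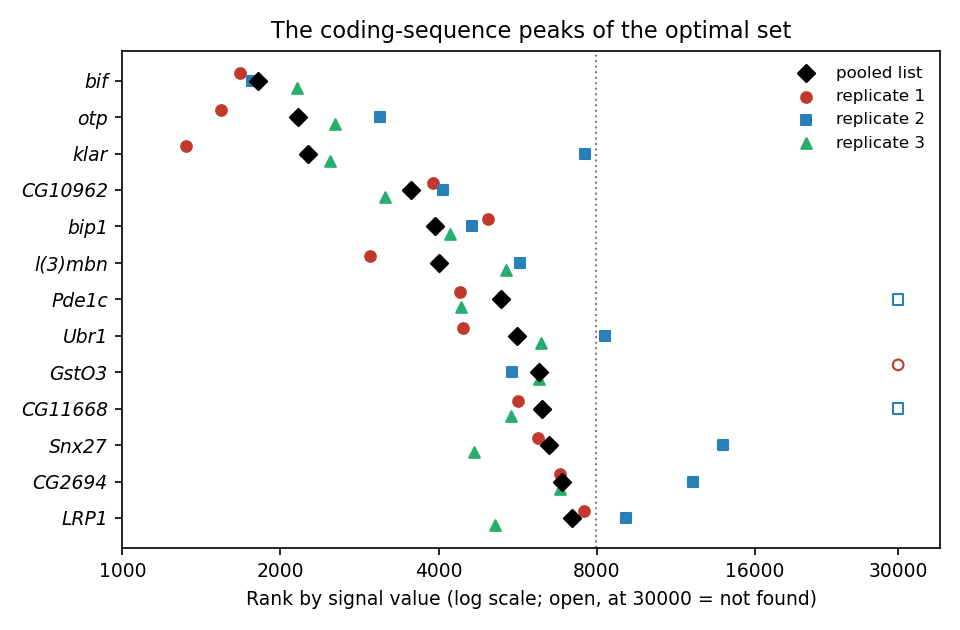
Rank by signal value (log axis, 1 the strongest) of the 13 coding-sequence peaks of the optimal set, with a black diamond for the pooled list and a coloured symbol for each replicate list; open symbols at 30000 mark a replicate in which no summit lay within 150 bp, and the dotted line is the weakest rank of the optimal set, 7993. The peaks of bif stay close together, while for klar, Snx27 and CG2694 the symbol of replicate 2 lies far to the right.

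Below the optimal set the coding-sequence peaks became steadily more frequent towards the weak end of the list. Their median rank was 24187 (quartiles 19657 and 27271), against 14561 for the other pooled peaks, 9805 for promoter peaks and 19259 for those in 3' UTRs, the next weakest class. Of the coding-sequence peaks, 98 (9.31%) fell among the strongest 15000 ranks and 542 (51.5%) among the weakest 6000, which held 18.9% of the others. The deposited −log10 q-value had a median of 0.312 for the coding-sequence peaks and of 1.08 for all pooled peaks. It exceeded 1.3, a q-value of 0.0501, for 68 coding-sequence peaks (6.46%), against 46.0% of all pooled peaks. No test over peaks is given for these values, since the peaks of 1 pooled list are not replicates.

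**Figure D2:**
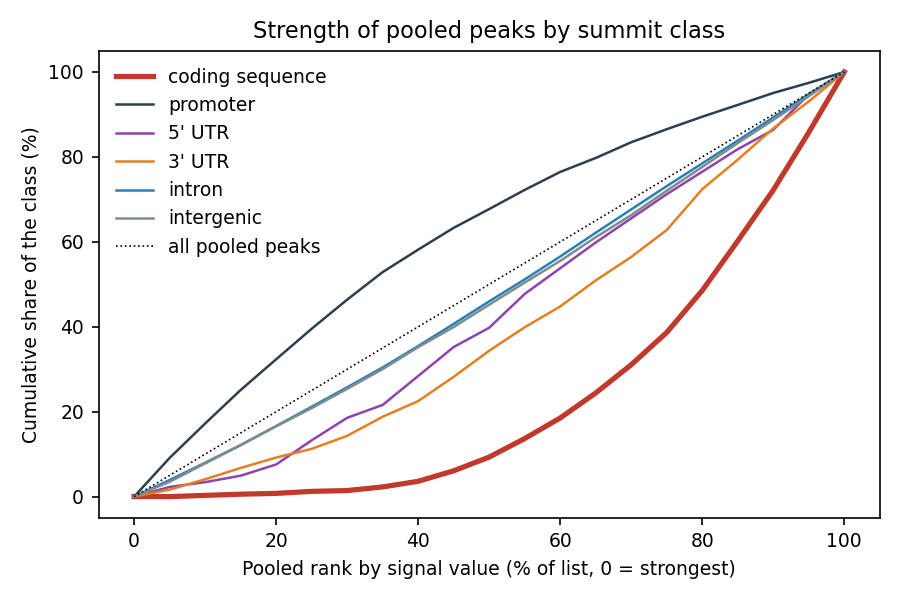
Cumulative share (%) of each class of pooled peaks against rank by signal value (% of the list, 0 the strongest), with a line per class and a dotted line for all pooled peaks. The coding-sequence line runs below all the other classes, with 9.31% reached at 50% of the list.

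The strongest peaks after the optimal set were those in mtd (8113), the cytochrome P450 gene Cyp6v1 (8127), raskol, which encodes a Ras GTPase-activating protein (9071), the formin gene capu (9219), Thor, which encodes the translation inhibitor 4E-BP (9478), Jheh3, a juvenile hormone epoxide hydrolase (9815), and br (9976). All but Thor and br were found in all 3 replicates. Of these 7, the capu summit lay 202 bp from a stronger optimal summit, and its interval overlapped the optimal one. That was rare: 8 coding-sequence intervals (0.760%) overlapped an interval of the optimal set, against 6.01% of the others. At the other end, the weakest peaks were those in CG7083 (29981) and CG18467 (29984), neither of which was found in any replicate.

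A pooled summit was called found in a replicate when a summit of that replicate's own list of 30000 peaks lay within 150 bp. Of the coding-sequence peaks, 584 (55.5%) were found in replicate 1, 294 (27.9%) in replicate 2 and 535 (50.8%) in replicate 3. The shares of the other pooled peaks were 68.5%, 68.2% and 72.2%. Replicate 2 therefore stood apart for the coding-sequence peaks and not for the other peaks combined, whose classes differed. Intergenic peaks were also found least often in replicate 2, with 68.6%, 61.4% and 69.3% in replicates 1, 2 and 3. So were intron peaks, by less (67.3%, 66.0% and 70.1%). Promoter peaks were found least often in replicate 1 (71.9%, 78.8% and 79.1%), as were those in 5' UTRs and 3' UTRs. The mean share was 44.7% ± 14.7 for the coding-sequence peaks and 69.6% ± 2.23 for the others (SD, n = 3 each), a difference of −24.9 ± 13.9 percentage points that had the same sign in every replicate (exact two-sided sign-flip test, p = 0.25, the smallest p that 3 replicates allow). In all 3 replicates, 85 were found (8.07%, 95% Wilson interval 6.58 to 9.87), against 41.5% of all pooled peaks. A further 118 (11.2%) were found in none, against 5.47% of all pooled peaks. Without replicate 2, 24.4% were found in both other replicates. Of the other pooled peaks, 42.7% were found in all 3 replicates and 10.7% in replicates 1 and 3 only.

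Weak peaks are found less often whatever their class, so the other peaks were also weighted to the pooled ranks of the coding-sequence peaks, in blocks of 1000 ranks, a comparison added after the data had been seen. At the same ranks, 45.3%, 44.0% and 47.8% of the other peaks were found in replicates 1, 2 and 3. The difference was then 10.2 percentage points in replicate 1, −16.1 in replicate 2 and 3.03 in replicate 3, with a mean of −0.972 ± 13.6 (SD, n = 3, exact two-sided sign-flip test, p = 1). The share found in all 3 was 8.07% for the coding-sequence peaks and 9.40% for the others at those ranks. At equal rank, then, coding-sequence peaks were found more often than the others in replicates 1 and 3 and less often in replicate 2, and the mean over replicates lay within the spread between them.

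**Figure D3:**
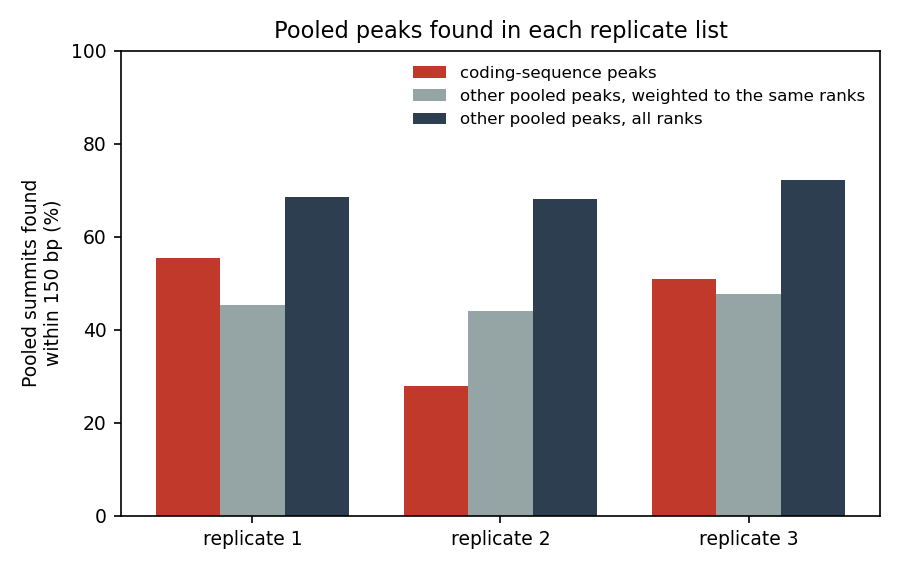
Share (%) of pooled summits with a summit of the replicate's own list within 150 bp, by replicate, for the coding-sequence peaks, the other pooled peaks weighted to the same ranks, and the other pooled peaks of all ranks. The red bars stand at 55.5%, 27.9% and 50.8%, above the grey bar in replicates 1 and 3 and below it in replicate 2.

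In replicate 2 the coding-sequence peaks were found less often than the others in every range of ranks, and the gap was wider in the ranges below rank 15328 than in the range just above it. Among ranks 7994 to 15328, 83.0%, 75.5% and 84.0% of the 94 coding-sequence peaks were found in replicates 1, 2 and 3, against 80.3%, 81.5% and 86.7% of the others. Among ranks 15329 to 22664, the shares of the 313 coding-sequence peaks were 68.7%, 37.1% and 60.7%, against 54.7%, 57.0% and 60.2%. Among the weakest, ranks 22665 to 30000, 44.1%, 15.2% and 40.0% of 633 coding-sequence peaks were found, against 36.3%, 33.1% and 37.0% of the others. Most single findings accordingly came from replicates 1 and 3: 257 peaks (24.4%) were found in replicate 1 alone, 212 (20.1%) in replicate 3 alone and 73 (6.93%) in replicate 2 alone. Of the other pooled peaks, 8.17% were found in replicate 1 alone, 7.71% in replicate 3 alone and 7.39% in replicate 2 alone.

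The replicates' own lists showed the same split. By the same rule, 1891, 848 and 1657 summits of replicates 1, 2 and 3 lay in coding sequence, which is 6.30%, 2.83% and 5.52% of each list and 4.88% ± 1.82 on average (SD, n = 3). Coding sequence over 500 bp from every TSS, called eligible here, made up 14.1% of the genome, more than the share of summits in every replicate (exact two-sided sign-flip test, p = 0.25, the smallest possible). The share of promoter summits ran the other way between replicates, at 24.0%, 30.6% and 26.7%. The number of reads behind each list is unknown, and the part of depth or immunoprecipitation efficiency in the difference between replicates was not tested. Among the strongest 7993 summits of each replicate, 18, 13 and 19 lay in coding sequence.

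Relative to length, eligible coding sequence was the sparsest class, with 55.8 pooled summits per Mb over its 18.9 Mb, against 224 per Mb over the genome, a ratio of 0.249. Promoters held 516 per Mb, 5' UTRs 320, introns 248, intergenic sequence 180 and 3' UTRs 80.8. For the optimal set the density was 0.689 per Mb of eligible coding sequence, against 59.7 per Mb of genome. Within coding sequence the density was highest near start sites. In bins chosen after the data had been seen, coding sequence 500 to 750 bp from a TSS held 81.3 summits per Mb and that 750 to 1000 bp away 81.4, falling to 54.9 between 1000 and 2000 bp, 47.2 between 2000 and 4000 bp and 42.1 beyond. The median distance to the nearest TSS was 1490 bp (quartiles 850 and 3174), and 348 peaks (33.0%) lay within 1000 bp.

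The 500 bp limit cut through a continuous range of distances. Just inside the rule were a peak in CG11357 (501 bp from a TSS, rank 21188, found in 2 replicates) and one in SIDL (504 bp, rank 22542, found in 1). Just outside were peaks in cact (499 bp, rank 12419, found in 3) and slmb (496 bp, rank 21315, found in 2). Coding summits 250 to 500 bp from a TSS, which the rule leaves out, had a density of 81.7 per Mb, close to that just inside. Closer to the TSS the density of summits in coding sequence was 151 per Mb between 100 and 250 bp and 225 per Mb within 100 bp.

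The coding-sequence peaks were denser in short exons than in long ones. For this measure 1013 of the peaks, those in the coding sequence of the gene's canonical transcript, were placed by the length of the coding exon that held them, in bins chosen after the data had been seen. The density was 72.9 summits per Mb in coding exons of up to 250 bp, 67.9 above that to 500 bp, 61.7 to 1000 bp, 49.6 to 2000 bp, 28.5 to 4000 bp and 7.50 in longer exons, the last bin resting on 7 peaks. Each replicate's own list had its 3 lowest densities in the same order. In coding exons of up to 250 bp they were 120, 65.2 and 98.5 per Mb in replicates 1, 2 and 3 (mean 94.7 ± 27.8, SD, n = 3), and in those over 2000 to 4000 bp they were 62.3, 23.04 and 63.7 per Mb (mean 49.7 ± 23.1). Replicates 1 and 3 had their highest density in exons over 250 to 500 bp, with 123 and 112 per Mb, and replicate 2 in the shortest exons.

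**Figure D4:**
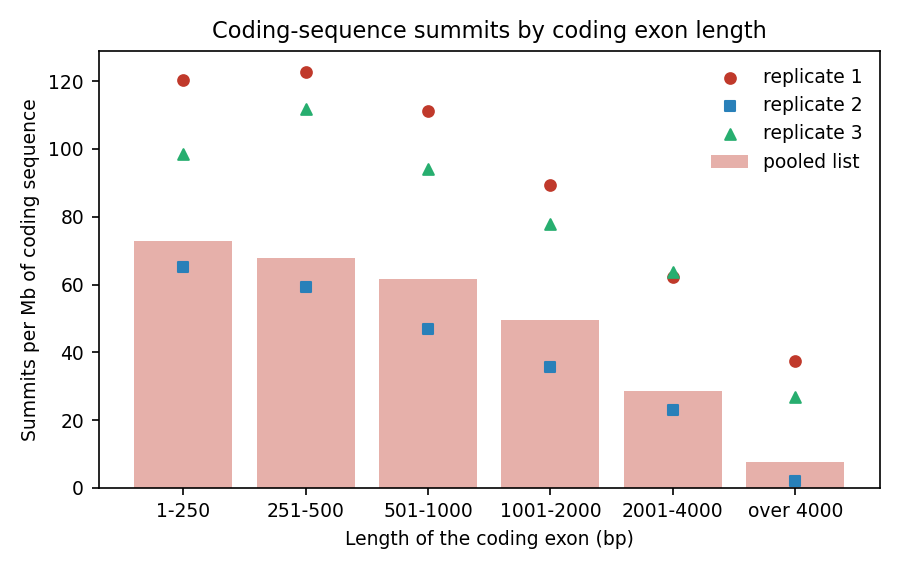
Summits per Mb of eligible coding sequence by length of the coding exon (bp), with bars for the pooled list and a symbol for each replicate's own list. All series are lowest in exons over 4000 bp, where the pooled list has 7.50 summits per Mb, and replicate 2 lies below the other replicates in every bin.

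Coding exons at the start of genes held 18.2% of these 1013 peaks, against 9.24% of eligible coding sequence, and internal exons 43.1%, against 57.1%. The share in starting exons was 13.6%, 19.0% and 15.5% in the lists of replicates 1, 2 and 3, above 9.24% in each. Last coding exons held 28.8% (25.3% of eligible coding sequence) and genes with a single coding exon 9.87% (8.31%). Along the coding sequence, 35.7% of the peaks fell in the part nearest the start codon when it was cut into 3 equal lengths, against 25.5% of eligible coding sequence, and the replicate lists gave 30.5%, 33.0% and 32.5%. The median distance from the summit to the exon's edge was 125 bp, against 168 bp for eligible coding bases, and 22.8% lay within 50 bp of an edge, against 20.6%.

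The peaks fell in 880 of the 12481 protein-coding genes with eligible coding sequence (7.05%). Of these, 755 genes held 1 peak, 98 held 2, 15 held 3 and 12 held 4 or more. In the replicates' own lists 1558, 719 and 1383 genes held a coding summit, 137 genes did so in every replicate, and 123 of those were among the 880. Longer coding sequence gave more chances of a peak but fewer per length: in 5 equal groups of genes by eligible coding length, 1.80%, 5.13%, 7.25%, 8.37% and 12.7% held a peak from the shortest group to the longest, with densities of 94.3, 93.2, 76.7, 58.9 and 42.4 peaks per Mb. No summit was coding in more than 1 gene, but 102 (9.69%) lay within the span of a further protein-coding gene. The summit was coding in every annotated transcript spanning it for 843 peaks (80.1%).

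Genes with a coding-sequence peak also had an optimal peak at a promoter more often than other genes did. Of the 880, 439 (49.9%) had an optimal summit within 500 bp of a TSS of their own, against 29.2% of eligible genes without a coding-sequence peak. The comparison was chosen after the data had been seen, and the direction was the same in each of these 5 groups of coding length, with 44.4%, 35.2%, 48.1%, 45.9% and 60.3% of genes with a coding-sequence peak, against 21.0%, 27.4%, 29.5%, 32.5% and 36.7% of those without. For genes with a coding summit in the list of replicate 1, 2 or 3, the shares with an optimal promoter peak were 37.7%, 57.4% and 47.8%, against 30.7% of all eligible genes. The promoter peaks and the coding-sequence peaks come from the same immunoprecipitates, and the part of open chromatin or gene activity was not tested.

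The gene with most peaks was br (broad), a BTB zinc-finger factor of the early response to the moulting hormone ecdysone, which rises before pupariation. Its 8 peaks had ranks 9976, 12803, 13219, 15926, 17295, 18085, 18179 and 25059, and 7 of them lay in final coding exons, of which br has several alternatives that encode different zinc fingers. Only those at ranks 12803 and 18179 were found in all 3 replicates. All 8 also lay within the span of Mur2B. The replicates' own lists held 7, 5 and 5 summits in br coding sequence.

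Next came bif with 6 peaks, of which 2 pairs lay 202 and 219 bp apart in the same exon, and the pair 219 bp apart matched the same peaks in replicates 1 and 3. Beside the optimal peak, the bif summit at rank 10890 was found in all 3 replicates (10404, 10689 and 20261), as was that at rank 18898 (14770, 29134 and 29458). Eip74EF, an ETS-domain factor, also held 6, led by rank 12781 (13276, 18741 and 8970 in the replicates), and Eip75B, a haem-binding nuclear receptor, held 5, led by rank 11999 (26801, 10261 and 7887). Both are early ecdysone genes like br. Of the Eip74EF peaks, only the strongest was found in all 3 replicates, while the last 2, at ranks 25599 and 27580, were found in replicate 2 alone. With 4 peaks each followed raskol (strongest rank 9071), rgr (10252), bun, a TSC22-domain factor (13123), sgg, the glycogen synthase kinase 3 (13544), Svil, a supervillin-like actin-binding protein (15690), Ser, the Notch ligand Serrate (17912), noc, a zinc-finger factor (20408), and osp (20511).

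Over the ecdysone response list, 8 of 19 genes with eligible coding sequence held a peak (42.1%), against 7.05% of all such genes. They held 25 peaks, or 407 per Mb of their coding sequence, against 55.8 per Mb overall. Besides br, Eip74EF and Eip75B, the list was carried by EcR, the ecdysone receptor itself (rank 20791), crol (21979), ftz-f1 (25528), Hr4 (27874) and E23, an ABC transporter (28012 and 28489). Of the 25 peaks, 18, 13 and 14 were found in replicates 1, 2 and 3 and 5 in all 3, and none was in the optimal set. In the replicates' own lists 11, 7 and 11 of the 19 genes held a coding summit (57.9%, 36.8% and 57.9%), against 12.5%, 5.76% and 11.1% of all eligible genes. An optimal promoter peak was present at 13 of the 19 (68.4%), against 30.7% of all eligible genes.

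Among heat shock proteins and chaperones, which refold or hold other proteins, 9 of 18 genes (50%, against 7.05% of all eligible genes) held 10 peaks, again 407 per Mb. Hsp27 was the strongest at rank 17016 (not found in replicate 1, 26420 in replicate 2 and 9920 in replicate 3), followed by Hsf, the heat shock transcription factor (17162), and Hsp22 (18007). Hsc70-4 (18713), Hsp67Ba (20571 and 26852), Hsp83 (26059), Hsc70-2 (26382), Hsc70-5 (29592) and Hsc70-3 (29880) followed. None of the 10 was found in all 3 replicates, and only 2, 4 and 5 were found in replicates 1, 2 and 3. The replicates' own lists held a coding summit in 4, 5 and 6 of the 18 genes, or 22.2%, 27.8% and 33.3%. In each the share was lower than in the pooled list and above that of all eligible genes (12.5%, 5.76% and 11.1%).

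In the list of larval storage and fat body genes 3 of 13 held a peak (23.1%), against 7.05% of all eligible genes. Lsp1gamma, a storage protein of the larval haemolymph, had rank 16175 and was found in all 3 replicates (11960, 14521 and 17175). Lsp2, a further storage protein, had rank 19979 and was found in replicate 2 alone. Fbp1, the storage protein receptor, had rank 22074 and was found in replicates 1 and 3. In the replicates' own lists the share was 38.5%, 15.4% and 15.4%, against 12.5%, 5.76% and 11.1% of all eligible genes. Of the glue genes of the salivary gland, 1 of 5 (20%) held a peak, Sgs3 (23965), found in replicate 2 alone. That share rests on 1 gene, and in the replicates' own lists it was 0%, 20% and 0%. The large zinc-finger and chromatin genes gave 7 of 29 (24.1%) with 17 peaks, of which 8 were those of br, a gene this list shares with the ecdysone list as it does crol. The others were zfh2 (12321), mod(mdg4), trx (21564), Su(z)2 and chn. For translation and the cytoskeleton the count was 4 of 16 (25%), with eIF4A at rank 15218 in all 3 replicates (12457, 17494 and 21961), Act5C (22549), eEF2 (23667) and betaTub56D (28598). Patterning genes gave 4 of 25 (16%), with the homeodomain genes hth (13426), inv (15789) and Antp (28501) and the repressor gene hry, or hairy (14202). In the replicates' own lists the shares were 24.1%, 31.0% and 48.3% for the zinc-finger and chromatin genes. They were 25%, 37.5% and 37.5% for translation and the cytoskeleton, and 28%, 8% and 24% for patterning.

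Among the 27 genes of fatty acid and phospholipid synthesis, the process SREBP is best known for, 1 held a coding-sequence peak (3.70%, 95% Wilson interval 0.657 to 18.3, which includes the 7.05% of all genes). It was mino, a glycerol-3-phosphate acyltransferase, at rank 29368 and in replicate 2 alone, while 17 of the 27 (63.0%) had an optimal promoter peak, against 30.7% of all eligible genes. None of 9 genes of SREBP processing and none of 14 glycolytic genes held one, and 5 and 8 of them had an optimal promoter peak. The replicates' own lists held coding summits in 4, 3 and 2 of the 27 synthesis genes (14.8%, 11.1% and 7.41%), against 12.5%, 5.76% and 11.1% of all eligible genes, a higher share in replicates 1 and 2 and a lower one in replicate 3.

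In the families counted by symbol, coding-sequence peaks were held by 5 of 79 genes of cytosolic ribosomal proteins (6.33%), 1 of 62 of mitochondrial ribosomal proteins, 2 of 33 of tRNA synthetases, 4 of 85 of cytochromes P450, 2 of 102 of cuticle proteins, 1 of 29 of histones, 1 of 25 of serine proteases of the Jonah and trypsin types, and 2 of 179 of chemoreceptors (1.12%). In the remaining lists the counts were 2 of 24 for muscle structure (sls and Zasp52), 2 of 32 for neuronal channels and synapse, 1 of 20 for apical matrix genes, 2 of 11 for Notch and its partners (Ser and mam; the symbol of the ligand gene Delta was ambiguous in the annotation and not matched, and with Delta, which held a peak at rank 16903 found in replicates 2 and 3, the count was 3 of 12), and 3 of 21 for cadherins and cell surface proteins. For all these families and lists, the share over all eligible genes was 7.05%. No list held a peak of the optimal set. The lists overlap and were not tested, so these counts describe the peaks and single out none of the lists.

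**Figure D5:**
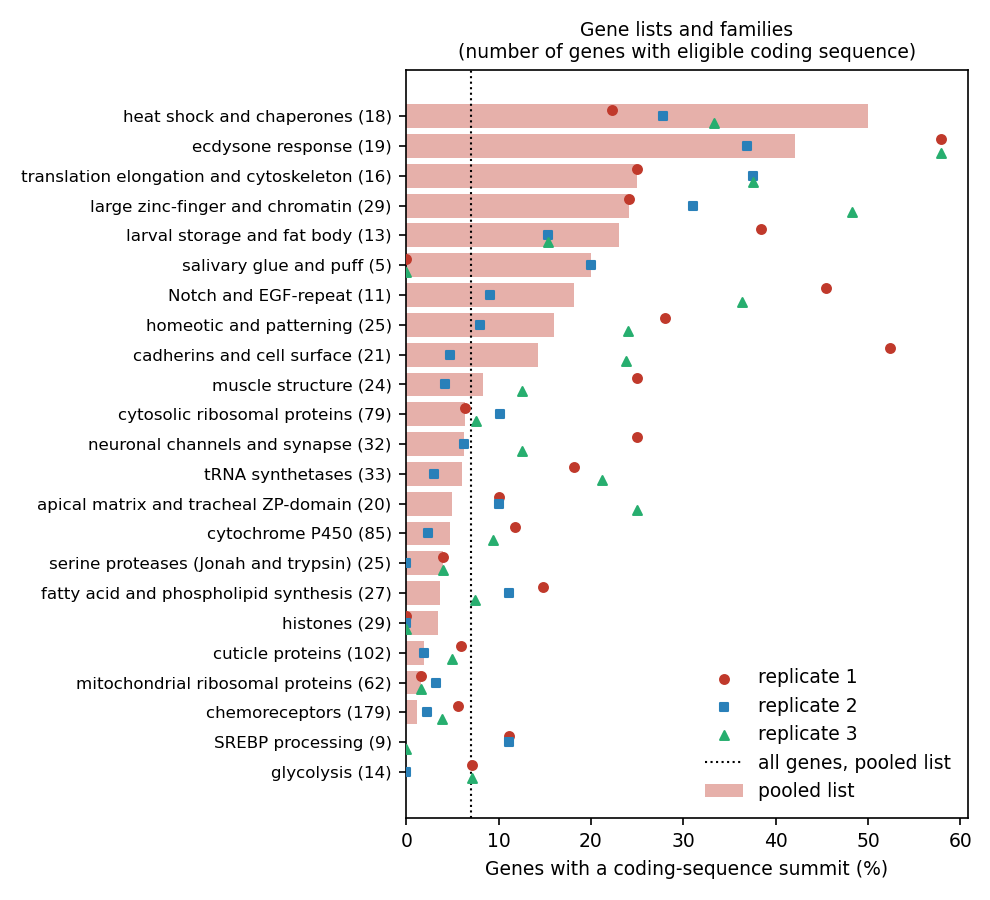
Share (%) of genes with at least 1 coding-sequence summit in each gene list or family, with the number of genes with eligible coding sequence in parentheses, bars for the pooled list, a symbol for each replicate's own list and a dotted line at 7.05%, the share over all eligible genes in the pooled list. The heat shock and ecdysone bars are the longest, at 50% and 42.1%, and for the cadherins the replicates spread most, between 4.76% and 52.4%.

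The windows of 101 bp around the coding-sequence summits had a median G+C content of 56.4% (quartiles 51.5 and 61.4), against 38.6% around the other pooled summits. Eligible coding sequence cut into windows of the same length had a median of 54.5%, so coding-sequence summits differed less from other coding sequence than from the other summits. The 2 kinds of window are not alike. Those cut from eligible coding sequence were wholly coding, and stretches shorter than a window were left out. Those around summits could run past the exon, and 22.8% of the 1013 placed summits lay within 50 bp of its edge. In the replicates' own lists the medians around coding summits were 55.4%, 54.5% and 55.4%. By the number of replicates in which coding-sequence peaks were found, the median G+C content was 54.5% for none, 56.4% for 1, 56.9% for 2 and 56.4% for 3. It was 57.4% for those found in replicate 1 and 55.4% for those not found there, and 56.4% for found and not found alike in replicates 2 and 3.

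Motifs were counted on both strands in the same windows. The values for eligible coding sequence again come from wholly coding windows, while those around summits could include non-coding bases. The E-box CACGTG, a core that many basic helix-loop-helix proteins bind, lay in 11 windows of coding-sequence peaks (1.04%), in 1.06% of all pooled windows and in 1.56% of windows of eligible coding sequence. The general form CANNTG, which includes it, lay in 43.4% of the coding-sequence peaks, 38.7% of all pooled windows and 43.2% of eligible coding sequence. The sterol regulatory element, searched as TCACNCCAC, lay in 1 window (0.0950%), against 0.200% of pooled windows and 0.199% of eligible coding sequence. Of the sequences printed above, that of bif held 1 CANNTG, in its non-coding bases, and that of Pde1c 4. Of those in Pde1c, CAGGTG and CAATTG also lay in non-coding bases.

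The other motifs searched are bound by factors of promoters and enhancers. DRE (TATCGATA) lay in 1 coding-sequence window (0.0950%), against 0.850% of all pooled windows and 0.0858% of eligible coding sequence. M1BP (GGTCACACT) lay in none (95% Wilson interval 0 to 0.363%), against 0.423% and 0.0438%. The GAGA-factor motif, searched as GAGAGAG, lay in 0.760% (1.70% and 0.470%), Zelda (CAGGTAG) in 0.475% (0.430% and 0.933%), the AP-1 form TGANTCA in 1.33% (2.40% and 1.32%) and the GATA-factor motif AGATAA in 3.23% (6.82% and 2.59%). The repeat CAGCAGCAG, which in its reading frames can encode runs of glutamine, serine or alanine, lay in 60 windows (5.70%, 95% Wilson interval 4.45 to 7.27), against 0.923% of all pooled windows and 3.05% of eligible coding sequence. In the replicates' own lists it lay in 4.07%, 4.36% and 4.83% of the coding summits' windows (mean 4.42% ± 0.381, SD, n = 3), above the share of eligible coding sequence in each. How reads map to such repeats was not tested.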

How the data were processed

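Per the labels, 3 biological replicates of 1 group were profiled. The authors' deposited peak lists (dm6) give for each peak a signal value, a score of height whose scale no source states; it served only for ranking inside a list. They also give a −log10 q-value, which the authors deposited and which is tied at 4.20 at the top, and the offset of the summit. The pooled list was called on all replicates together, and the optimal set came from comparing the replicates, per the notes deposited with the lists. The aligner, the peak caller with its thresholds, and whether a control library entered peak calling were not given in the sources used here. Every list holds 30000 peaks, so list length carries no information, and depth is unknown. Intervals are Wilson 95% intervals and cover counting error only.

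Gene models were from Ensembl release 115 (BDGP 6.54), in which the stop codon is not part of the CDS, and sequence from RefSeq's dm6 assembly. Each summit was classed in the order promoter, CDS, 5' UTR, 3' UTR, intron, intergenic. Coordinates count from 1. Python 3.11.15, numpy 2.4.6 and pandas 2.3.3 were used, and class assignment and summit matching were tested on simulated data. The single tests are exact sign-flip tests over replicates. The replicates' p-values measure only the spread between these 3 samples.

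Members, lists and motifs were chosen with earlier results of these data known. Named genes are those of the coding-sequence peaks in the optimal set and of the 20 strongest, the 10 with most peaks, up to 3 per list with the strongest peaks, those beside the 500 bp limit and the 2 weakest. Further list members, noc, osp, and the genes in the other observations were named after their values were seen. Of the list symbols a few were matched by synonym, 6 were not matched (4 of them older names of genes already listed), and 1 was dropped after its value was seen because it matched a cyclophilin by case alone. Alternatives varied the limit, the matching distance, the windows and the replicates.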

Additional observations from a re-analysis of the deposited data

How the results depend on the processing

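Of 81 alternative values none reversed a direction, but many were counts, shares or medians that have no direction to reverse. Of them, 44 summary values and 8 motif shares or list counts were classed as the same as the value reported. These included counts that have no spread or interval and that changed with the limit. The number of coding-sequence peaks was 1250 with a 250 bp limit and 705 with a 1000 bp limit, against 1053. The number of genes was 1061 with the 250 bp limit, against 880. Another 16 and 13 values were classed as moved, the motif shares with the length of the window. Merging summits within 150 bp could change nothing, since the closest summit to a coding-sequence peak lay 199 bp away. The share of coding-sequence peaks in the optimal set was 0.475% for the strongest 3996 peaks of that set. The share found in all replicates was 2.09% with summits matched within 50 bp, 14.6% within the wider distance tried, 0.570% when only the strongest peaks of each replicate were used, and 14.3% to 24.4% when 1 replicate was left out. The median rank percentile was 60.0, 70.3 and 64.8 in the lists of replicates 1, 2 and 3 for peaks found there, against 80.6 in the pooled list. The mean CDS share of the replicate lists was 0.209% among their strongest peaks and 4.18% to 5.91% when 1 replicate was left out. The median G+C content was 55.4% with a 250 bp limit, 57.4% with a 1000 bp limit and 55.2% with 100 bp to each side. With the 1000 bp limit 579 genes held a peak. The mean difference in the share found was −0.972 points with other peaks weighted to the same ranks and lay between −30.8 and −17.2 points when 1 replicate was left out, both added after the data had been seen. Within single replicates the weighting did change the sign, from −13.1 to 10.2 points in replicate 1 and from −21.4 to 3.03 in replicate 3. The causes were not tested. No paired analysis was possible because there is 1 group of samples; only peak classes were set against each other within replicates. The lists give no reads, so depth limits every statement on weak peaks, and 3 replicates cannot give a p below 0.25.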

Other observations

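Among the 15 genes with 3 coding-sequence peaks, named here after their values were seen, were Diap1, an inhibitor of apoptosis (strongest rank 14387), Rchy1 (12500), corto (13951), siz (15692), the kinase gene Mps1 (15756), tai, a coactivator of the ecdysone receptor (19889), scrib, a polarity scaffold (21157), dor, a subunit of the vacuolar sorting machinery (21179), and SNF4Agamma, the gamma subunit of the AMP-activated kinase (22434). On chromosome 4 both coding-sequence peaks lay in zfh2, and their density was 7.79 per Mb of eligible coding sequence, against 52.2 to 62.2 per Mb on the other arms. All pooled peaks were sparse there, at 28.9 per Mb, against 208 to 247 per Mb on the other arms, and the 2 coding-sequence peaks were 5.13% of the arm's pooled peaks, against 3.18% to 3.87%.

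Coding-sequence summits stood further from other pooled summits than the rest did. Of them, 107 (10.2%) had another pooled summit within 250 bp, against 22.3% of the others, and the closest lay 199 bp away. In the replicate lists, 18 coding-sequence peaks shared their matched replicate peak with another coding-sequence peak. The distance to the nearest optimal summit had a median of 2794 bp for coding-sequence peaks and of 3016 bp for the others.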
